A study of Rattus norvegicus with 16 samples.

Results

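Protein phosphatase genes were taken as all probe sets annotated to a single gene symbol that begins with Ppp1 to Ppp6, Ptpn, Ptpr or Dusp. The rule gave 101 probe sets for 63 genes, out of 8740 probe sets for 4736 named genes. They comprised 9 probe sets for 8 catalytic subunits and 32 for 21 regulatory subunits of serine-threonine phosphatases, 28 for 18 receptor and 24 for 11 non-receptor tyrosine phosphatases, and 8 for 5 dual-specificity phosphatases. For 25 genes there was more than 1 probe set, with up to 5 for a gene.

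Phosphatases remove the phosphate groups that kinases add to proteins. The serine-threonine enzymes use few catalytic subunits, and their many regulatory subunits set the place and the substrate. Tyrosine phosphatases are largely single proteins, some of them receptors in the plasma membrane, and the dual-specificity enzymes measured here switch off MAP kinases. In photoreceptors, light adaptation cycles phosphate on rhodopsin and phosducin, and in the pineal gland noradrenaline acts at night through cyclic AMP and protein kinase A to induce melatonin synthesis.

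Total RNA from rat tissue was hybridised to 16 Affymetrix arrays, 4 of pineal gland and 12 of retina. The retina had 3 arrays in each of 4 groups, CT12, CT6, ZT12 and ZT6, and the pineal had 1 array under each of the same labels. CT stands for circadian time and ZT for Zeitgeber time, and the number is the hour. By convention ZT counts from lights on and CT follows the internal clock without a light cycle. The labels name no strain, age, sex or lighting. Nor do they say that numbered arrays are different animals. The p-values therefore rest on the spread among arrays, which may be technical. The submitters' source field calls the arrays numbered 3 brain, retina and those numbered 1 and 2 eye, retina. The pineal arrays also carry retina in that field and were placed by their titles.

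The trimmed mean intensity lay between 2503 and 2506 on all 16 arrays. Of 5 pineal marker genes measured, Tph1, Aanat, Asmt and Ddc were higher on every pineal array than on any retina array except for Aanat on the CT6 array. Adrb1 went the other way, with 5.98 to 6.84 in the pineal and 7.24 to 10.80 in the retina. Tph1, the first enzyme of serotonin and melatonin synthesis, read 14.20 to 14.74 in the pineal and 4.89 to 8.04 in the retina. Over 5 rod genes it was 12.81 to 13.28 in the pineal and 15.57 to 16.15 on 11 retina arrays. CT12 array 1 was unlike the remaining 11 retina arrays. Its rod mean was 11.75, its median Spearman correlation with the other retina arrays was 0.837 against 0.944 to 0.962 for the others, and the mean of 13 lens genes was 17.82. Lens genes averaged 16.97 and 15.11 on the other CT12 arrays, 11.12 to 14.89 at CT6, 13.92 to 15.80 at ZT12 and 11.37 to 14.50 at ZT6. Of 69 phosphatase probe sets tested in the retina, 29 had their lowest value on CT12 array 1 (42%, against 34.9% of all 5244 probe sets tested), and 17 had their highest value there (24.6%, against 33.1% of all). Retina results are therefore given with and without this array. In tissue RNA, fewer cells of a type and less RNA per cell cannot be told apart.

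Ptpn1 was higher at ZT12 than at ZT6 in the retina on 1 of its 5 probe sets. Ptpn1 encodes PTP1B, the tyrosine phosphatase of the endoplasmic reticulum that acts on the insulin and leptin receptor pathways. On probe set rc_AI113289_s_at the log2 intensities were 12.67, 12.47 and 12.47 at ZT12 and 11.59, 11.45 and 11.10 at ZT6. All ZT12 arrays lay above all ZT6 arrays. The difference was 1.16 ± 0.19 log2 units (SE), a 2.23-fold increase with a 95% interval of 1.66 to 2.99 (limma, adjusted p = 0.0459). It was the only one of 69 phosphatase probe sets to pass, and 0.286% of all probe sets tested passed (0.267% higher at ZT12). At an unadjusted p below 0.05 there were 14 of the 69, or 20.3%, against 8.62% of all probe sets. Several of these probe sets share a gene. With the brightest probe set standing for each gene, there were 6 of 44, or 13.6%, and 0 passed after adjustment.

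The other Ptpn1 probe sets were not uniform. On rc_AI180145_s_at the values were 10.96, 11.18 and 10.72 at ZT12 and 10.32, 9.96 and 9.93 at ZT6, a difference of 0.88 ± 0.20 (adjusted p = 0.127). On M33962_g_at they were 13.74, 14.26 and 13.82 at ZT12 and 13.06, 13.13 and 13.22 at ZT6, a difference of 0.80 ± 0.23 (adjusted p = 0.29). On M33962_at the difference was 0.61 ± 0.14 (adjusted p = 0.15). In each of these 3 the ZT12 and ZT6 arrays did not overlap, although the differences did not pass. How many of all probe sets separate in this way was not counted, here or below. Separation alone is therefore not read as a result. The 5th probe set, rc_AI112391_s_at, overlapped between the groups, with a difference of 0.07 ± 0.18. CT12 array 1 is in neither group, and it enters through the normalization, the filter and the shared estimate of the spread. Without it, 3 Ptpn1 probe sets passed: rc_AI113289_s_at (adjusted p = 0.00755), rc_AI180145_s_at (adjusted p = 0.0424) and M33962_g_at (adjusted p = 0.0463). The call on rc_AI113289_s_at did not hold when any one ZT12 or ZT6 array was left out, nor with values as deposited, with no filter, with the lens covariate, with the arrays labelled eye only or with the array number as a block (adjusted p = 0.115, 0.145, 0.0976, 0.516 and 0.0877).

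The dual-specificity phosphatases Dusp1 and Dusp5 also had their ZT12 values above their ZT6 values, and whether Dusp1 passed depended on 1 array of another group. Dusp1 encodes MKP-1, an inducible nuclear phosphatase of p38, JNK and ERK. On probe set S81478_s_at its log2 intensities were 11.48, 11.60 and 11.54 at ZT12 and 10.01, 10.31 and 10.07 at ZT6. On S74351_s_at they were 11.93, 12.23 and 12.22 at ZT12 and 10.92, 10.90 and 10.92 at ZT6. On U02553cds_s_at they were 12.62, 12.56 and 12.63 at ZT12 and 11.60, 11.76 and 10.89 at ZT6. In all 3 Dusp1 probe sets the ZT12 arrays lay above the ZT6 arrays with no overlap, a separation whose share over all probe sets was not counted. With all 12 arrays the differences were 1.41 ± 0.47, 1.21 ± 0.79 and 1.18 ± 0.82 log2 units and did not pass (adjusted p = 0.361, 0.79 and 0.802).

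The spread behind those errors came largely from CT12. There S74351_s_at read 7.94 on array 1 and 11.46 and 11.99 on arrays 2 and 3, S81478_s_at read 9.42, 11.36 and 11.73, and U02553cds_s_at read 8.72, 12.08 and 12.95. Without CT12 array 1 the ZT12 increase passed for S81478_s_at, at 1.42 ± 0.16 (adjusted p = 0.00249), and for S74351_s_at, at 1.21 ± 0.16 (adjusted p = 0.00745). For U02553cds_s_at it was 1.18 ± 0.25 (adjusted p = 0.0544). With that array left out, 5 phosphatase probe sets passed at ZT12 against ZT6, all of them Dusp1 or Ptpn1 and all higher at ZT12. Among all 5244 probe sets the count was then 79, or 1.51%.

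Dusp5, a nuclear phosphatase selective for ERK, read 12.08, 12.37 and 12.48 at ZT12 and 11.06, 11.41 and 11.45 at ZT6. The difference was 1.00 ± 0.36 (adjusted p = 0.417), and without CT12 array 1 it was 1.00 ± 0.24 (adjusted p = 0.0842). Dusp6, a cytoplasmic ERK phosphatase, overlapped between the hours on both probe sets, with differences of 0.05 ± 0.40 and 0.25 ± 0.47. All 6 dual-specificity probe sets tested had positive differences, with a median of 1.09 against -0.02 over all probe sets tested. These 6 belong to 3 genes, and probe sets of a gene share its transcript. Ppp1r15a (GADD34), the stress-induced subunit that directs protein phosphatase 1 to eIF2-alpha, did not overlap between ZT12 and ZT6 on either probe set, with differences of 0.57 ± 0.19 and 0.51 ± 0.17 (adjusted p = 0.358 and 0.366).

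**Figure D1:**
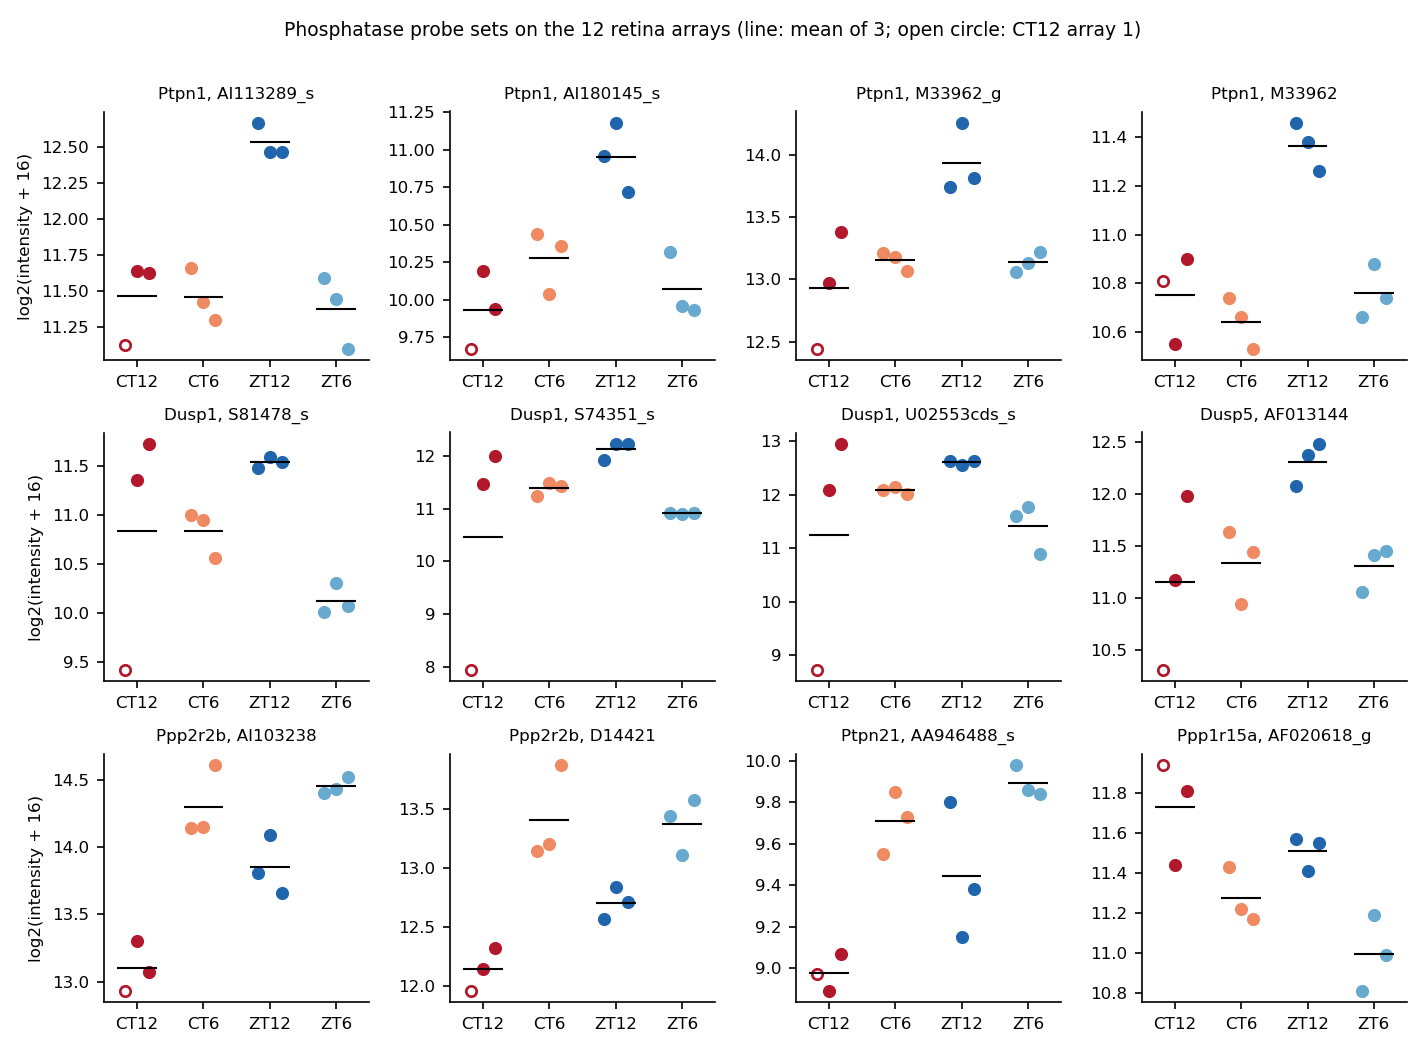
Log2 intensity (vertical axes, each on its own range) of 12 phosphatase probe sets on the retina arrays of CT12, CT6, ZT12 and ZT6. Each point is an array, the line is the mean of 3, and the open circle is CT12 array 1, which lies lowest of all 12 in each Dusp1 panel.

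The promoters of Dusp1, Dusp5, Ppp1r15a and Ptpn1 are shown as a choice by hand from the genes just described. Their ZT12 values lay above their ZT6 values without overlap on most or all of their probe sets, but they are not all such genes. Ppp2r1a also separated on both of its probe sets, with differences of 0.137 and 0.476, and its promoter is not shown. Each runs 5′ to 3′ over 300 bases, from 250 before the transcript start, in RefSeq's GRCr8 assembly. Capitals mark matches to the motifs searched on both strands: the cyclic AMP response element TGACGTCA, the E-box CACGTG, the Egr sites GCGGGGGCG and GCGTGGGCG, and the serum response element (CArG box).
Dusp1 promoter, chr10:17184603-17184902, plus strand: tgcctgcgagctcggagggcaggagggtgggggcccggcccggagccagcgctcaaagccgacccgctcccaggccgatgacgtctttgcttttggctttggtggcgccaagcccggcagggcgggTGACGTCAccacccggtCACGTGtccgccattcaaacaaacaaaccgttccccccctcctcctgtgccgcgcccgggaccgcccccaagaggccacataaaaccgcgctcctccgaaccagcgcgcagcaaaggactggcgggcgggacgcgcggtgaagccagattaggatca
Dusp5 promoter, chr1:262543524-262543823, plus strand: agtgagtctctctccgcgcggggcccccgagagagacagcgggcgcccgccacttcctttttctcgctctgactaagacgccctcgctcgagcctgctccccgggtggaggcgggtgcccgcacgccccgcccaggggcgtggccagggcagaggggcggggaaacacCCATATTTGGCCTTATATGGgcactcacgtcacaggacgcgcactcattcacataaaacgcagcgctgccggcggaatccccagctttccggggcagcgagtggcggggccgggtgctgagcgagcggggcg
Ppp1r15a promoter, chr1:105139547-105139846, minus strand: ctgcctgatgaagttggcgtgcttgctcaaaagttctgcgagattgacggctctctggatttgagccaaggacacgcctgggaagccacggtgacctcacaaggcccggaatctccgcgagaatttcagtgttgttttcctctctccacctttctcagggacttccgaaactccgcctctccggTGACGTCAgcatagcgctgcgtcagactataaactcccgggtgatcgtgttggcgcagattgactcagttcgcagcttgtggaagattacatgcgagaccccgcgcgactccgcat
Ptpn1 promoter, chr3:177057483-177057782, plus strand: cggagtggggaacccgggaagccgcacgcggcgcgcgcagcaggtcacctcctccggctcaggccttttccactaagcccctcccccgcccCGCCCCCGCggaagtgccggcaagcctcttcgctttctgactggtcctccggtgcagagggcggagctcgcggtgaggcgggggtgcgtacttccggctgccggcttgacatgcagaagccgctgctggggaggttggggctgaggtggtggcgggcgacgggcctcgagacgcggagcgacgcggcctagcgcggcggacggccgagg

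The Dusp1 promoter held a cyclic AMP response element that began 124 bases before the start and an E-box that began 107 bases before it. In Ppp1r15a the same response element began 66 bases before the start. In Dusp5 there were 2 adjoining CArG boxes, CCATATTTGG at 82 and CCTTATATGG at 72 bases before the start, and in Ptpn1 an Egr site was read on the opposite strand as CGCCCCCGC at 159. Over all 33469 promoters of the same length, 1.83% held the response element, 6.42% the E-box, 2.73% GCGGGGGCG, 0.544% GCGTGGGCG and 1.64% a CArG box. Promoters were found for 55 of the 63 phosphatase genes. Among these, Dusp1, Ppp1r15a, Ptprs and Ptpru held the response element, Dusp1 and Ptprs the E-box, Ptpn1, Ppp2r5a, Ppp3cb, Ptpn2 and Ptpre GCGGGGGCG, 0 GCGTGGGCG, and Dusp5 alone a CArG box. These matches describe letters in a window, and binding was not measured.

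Under circadian time no Ptpn1 probe set passed, and their signs were mixed, with 3 of 5 positive at CT12 against CT6. On rc_AI113289_s_at the log2 intensities were 11.13, 11.64 and 11.63 at CT12 and 11.66, 11.43 and 11.30 at CT6. The groups overlapped, and the CT12 minus CT6 difference was 0.00 ± 0.19. On rc_AI112391_s_at, which overlapped between the ZT groups, the values were 11.07, 10.54 and 10.70 at CT12 and 10.52, 10.32 and 10.28 at CT6, without overlap and with a difference of 0.40 ± 0.18 (adjusted p = 0.188). The remaining 3 overlapped, with differences of -0.34 ± 0.20, -0.22 ± 0.23 and 0.11 ± 0.14. On rc_AI113289_s_at CT12 lay below ZT12 without overlap, by -1.07 ± 0.19 log2 units (adjusted p = 0.044). This was the only phosphatase probe set of 69 to pass in CT12 against ZT12, where 0.61% of all probe sets passed (0.496% lower at CT12). At an unadjusted p below 0.05 there were 23 of the 69, against 26.2% of all probe sets. Without CT12 array 1 the difference was -0.90 ± 0.17 (adjusted p = 0.0505), and the call did not hold.

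The difference between the CT and ZT time effects, which is the test of whether the Ptpn1 pattern depended on the regime, did not pass for any phosphatase probe set (0 of 69, with 0.0191% of all probe sets called and 8 of the 69, or 11.6%, at an unadjusted p below 0.05, against 16% of all). It was -1.15 ± 0.27 for rc_AI113289_s_at and -1.23 ± 0.28 for rc_AI180145_s_at (limma, adjusted p = 0.169 for both). For the scaffold subunit Ppp2r1a it was -0.97 ± 0.27 on D14418_at (adjusted p = 0.204), and for Ppp1r13l, a p53-binding protein named as a phosphatase 1 subunit, it was 0.60 ± 0.21 (adjusted p = 0.246). The ZT12 group is part of both Ptpn1 comparisons, so its high values enter each of them.

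Dusp1 under circadian time depended on the array. With CT12 array 1 the CT12 minus CT6 differences of its 3 probe sets were 0.00, -0.93 and -0.83 log2 units. Without it they were all positive, and that of S81478_s_at was 0.71 ± 0.18 (adjusted p = 0.103). On this probe set CT12 arrays 2 and 3 read 11.36 and 11.73, above the CT6 values of 11.00, 10.95 and 10.56. Averaged over both regimes without CT12 array 1, hour 12 exceeded hour 6 by 1.06 ± 0.12 on S81478_s_at (adjusted p = 0.00222) and by 0.77 ± 0.12 on S74351_s_at (adjusted p = 0.0141), where 1.3% of all probe sets passed. With all arrays these averages were 0.71 ± 0.33 and 0.14 ± 0.56 and did not pass.

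**Figure D2:**
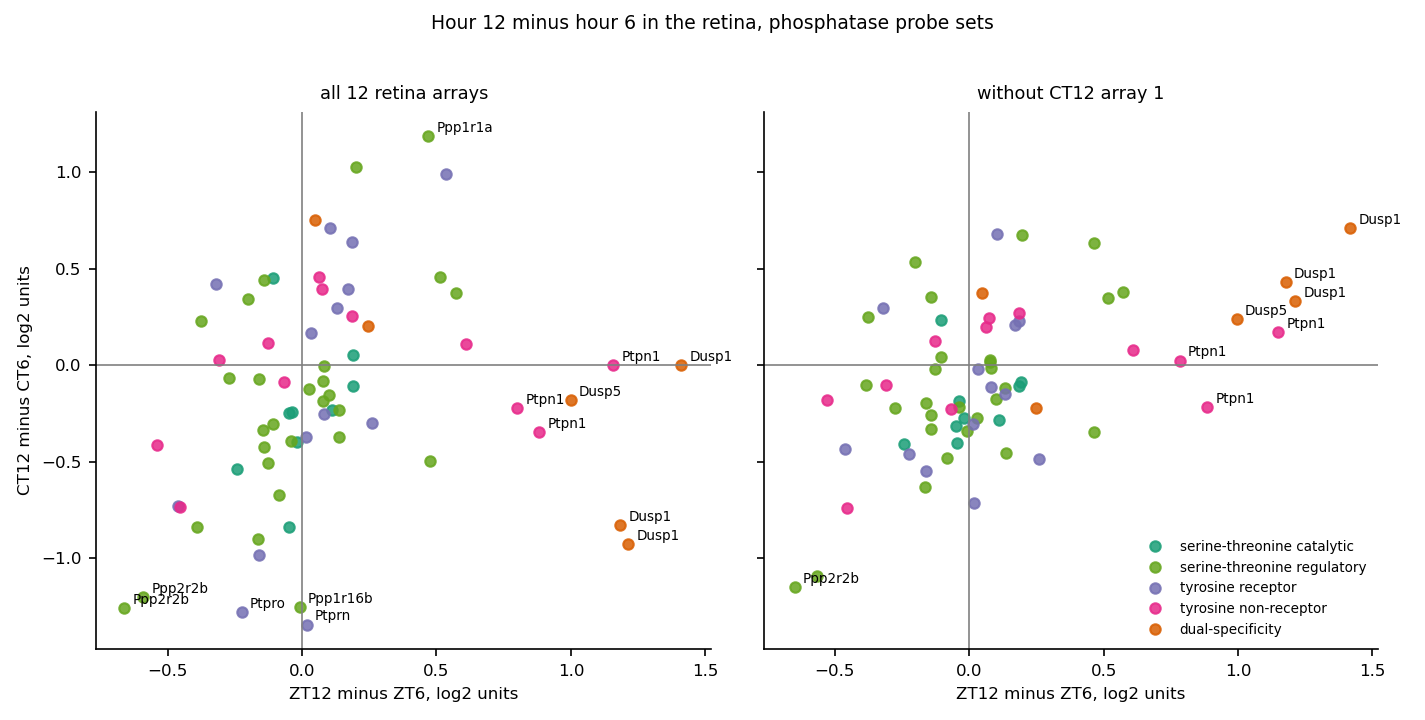
Difference between hour 12 and hour 6 in the retina in log2 units, under ZT (horizontal axis) and CT (vertical axis), for the tested phosphatase probe sets coloured by class, with all 12 arrays on the left and without CT12 array 1 on the right. The 3 Dusp1 probe sets lie at 1.18 to 1.41 on the horizontal axis on the left, and their CT differences are all above 0 only in the right panel.

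Ppp2r2b was lower at hour 12 than at hour 6 on the average of both regimes, and did not pass within either one. It encodes a B-type subunit of protein phosphatase 2A that is enriched in neurons. On rc_AI103238_at the log2 intensities were 12.93, 13.30 and 13.07 at CT12 and 14.14, 14.15 and 14.61 at CT6, and they were 13.81, 14.09 and 13.66 at ZT12 and 14.40, 14.43 and 14.52 at ZT6. On D14421_at they were 11.96, 12.15 and 12.32 at CT12 and 13.14, 13.20 and 13.87 at CT6, and 12.57, 12.84 and 12.71 at ZT12 and 13.44, 13.11 and 13.57 at ZT6. On both probe sets all 6 hour 12 arrays lay below all 6 hour 6 arrays.

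Over both regimes Ppp2r2b fell by 0.90 ± 0.13 log2 units on rc_AI103238_at (adjusted p = 0.018) and by 0.96 ± 0.15 on D14421_at (adjusted p = 0.0364), to a level 1.86-fold and 1.94-fold below that of hour 6. These were the 2 phosphatase probe sets that passed in this comparison, both lower, where 0.21% of all probe sets passed (0.0953% lower at hour 12). At an unadjusted p below 0.05 there were 14 of the 69, or 20.3%, against 17.6% of all probe sets. Without CT12 array 1 the values were -0.83 ± 0.12 and -0.90 ± 0.15 (adjusted p = 0.0129 and 0.0198). Within single regimes Ppp2r2b did not pass. The CT12 minus CT6 differences were -1.20 ± 0.18 (adjusted p = 0.0508) and -1.26 ± 0.21 (adjusted p = 0.0796), and the ZT12 minus ZT6 differences were -0.59 ± 0.18 and -0.66 ± 0.21 (adjusted p = 0.314 and 0.354). The difference between the regimes was not past the threshold (-0.61 ± 0.26 and -0.59 ± 0.30). Neither Ppp2r2b probe set passed with the level of the lens genes as a covariate (adjusted p = 0.28 and 0.358), with no filter, with the arrays labelled eye only, or without ZT12 array 3 or any one ZT6 array. With the array number as a block 1 of them passed. The direction was the same in each of these. Neuronal marker means were below CT6 on CT12 arrays 1 and 2, mostly so on array 1. On array 3 the ganglion cell mean was just below the CT6 range and the synaptic vesicle mean lay within it. The mean of 7 ganglion cell genes was 10.14, 12.76 and 12.88 at CT12 and 12.93 to 13.28 at CT6, and that of 13 synaptic vesicle genes was 10.07, 11.97 and 12.43 at CT12 and 12.40 to 12.56 at CT6. Under ZT the ganglion cell mean was 13.04 to 13.12 at ZT12 and 13.02 to 13.28 at ZT6, and the synaptic vesicle mean was 12.48 to 12.68 at ZT12 and 12.35 to 12.49 at ZT6. Within the ganglion cell list Uchl1 did not fall, with 15.30, 14.53 and 14.15 at CT12 and 14.08, 14.56 and 14.48 at CT6. The part of these markers in the Ppp2r2b values was not tested.

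Among other members in the hour comparison, Ptpn21, a non-receptor tyrosine phosphatase with a FERM domain, differed by -0.59 ± 0.12 on rc_AA946488_s_at (adjusted p = 0.107). Its CT12 values of 8.97, 8.89 and 9.07 lay below its CT6 values of 9.55, 9.85 and 9.73, and its ZT12 values of 9.80, 9.15 and 9.38 lay below its ZT6 values of 9.98, 9.86 and 9.84. Ptpn1 on rc_AI113289_s_at differed by 0.58 ± 0.14 (adjusted p = 0.148), and by 0.66 ± 0.11 without CT12 array 1 (adjusted p = 0.0227). Ppp1r15a on AF020618_g_at differed by 0.48 ± 0.12 (adjusted p = 0.157).

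CT12 against CT6 gave 0 calls among the 69 phosphatase probe sets in limma, with 18 at an unadjusted p below 0.05, where 0.0381% of all probe sets passed and 27.4% were below an unadjusted 0.05. The members with the smallest p after Ppp2r2b and Ptpn21 were Ppp1r1a, at 1.03 ± 0.28 on J05592_g_at (adjusted p = 0.119), and Ppp2r5a, at -0.67 ± 0.19 (adjusted p = 0.126). Ppp1r1a encodes inhibitor 1, which blocks protein phosphatase 1 once protein kinase A has phosphorylated it. Its J05592_g_at values were 14.95, 14.22 and 13.65 at CT12 and 13.28, 13.42 and 13.06 at CT6. Within CT12 they ran in the same order as the lens means of 17.82, 16.97 and 15.11. The order was shared by the receptor phosphatase Ptpru, with 11.92, 10.27 and 8.44 at CT12, and by Ptprh, which was below the filter, with 11.14, 9.24 and 6.97. Ptprn, the secretory granule protein IA-2, ran the other way, with 10.19, 11.43 and 12.69. The part of lens RNA in these values was not tested gene by gene.

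No phosphatase passed between the regimes at hour 6. CT6 against ZT6 gave 0 phosphatase calls, with 2 at an unadjusted p below 0.05 (2.9%, against 5.07% of all probe sets), and 0 among all probe sets. The smallest p belonged to Ppp1r13l, at -0.39 ± 0.15, to Ppp2r1a, at 0.46 ± 0.19, and to Ppp2r2a, a B-type subunit of phosphatase 2A, at 0.34 ± 0.16 (adjusted p = 0.924, 0.944 and 0.974). Averaged over both hours, CT against ZT also gave 0 calls, with 13 at an unadjusted p below 0.05 (11.8% of all probe sets). There the smallest p belonged to Ptpn1, at -0.49 ± 0.14 on rc_AI113289_s_at and -0.37 ± 0.10 on M33962_at (adjusted p = 0.297 for both).

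None of the 9 catalytic probe sets, for protein phosphatases 1, 2A, 2B (calcineurin), 5 and 6, passed in any of the 7 retina comparisons. At ZT12 against ZT6 their differences ran from -0.24 ± 0.28 for Ppp3ca, a calcineurin catalytic subunit, to 0.19 ± 0.25 for Ppp1cb. The 95% interval was narrowest for Ppp2cb, from -0.30 to 0.23, and that of Ppp1cc ran from -0.76 to 0.67, so differences inside that interval were not resolved. Ppp3cb, the other calcineurin catalytic subunit, differed by -0.02 ± 0.19. At CT12 against CT6, Ppp1cc read 13.01 on CT12 array 1 against 13.98 and 14.53 on the other CT12 arrays and 14.47 to 14.82 at CT6. No gene of the 5 lists of partners, namely the MAP kinase pathway, calcineurin and calmodulin partners, other phosphatases and their inhibitors, protein kinases A and C, and tyrosine kinases, passed in any retina comparison, with 15, 7, 14, 12 and 25 genes tested.

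Between tissues most phosphatase genes differed. In the pineal against the retina 55 of 69 phosphatase probe sets passed, 21 higher and 34 lower in the pineal. In the same comparison 75.8% of all probe sets passed, 39.4% higher and 36.4% lower (77.4% at an unadjusted p below 0.05), so the share of phosphatase probe sets called, 79.7%, lies near the background. Their median difference was -0.38 log2 units, against 0.09 over all probe sets. Of the 69, 16 were below the filter in the pineal taken alone and 2 in the retina taken alone. All 18 passed the test, as did 804 of the 850 such probe sets among all 5244. Such a probe set enters through the tissue where it is high, so its difference rests on dim values and its call was favoured by the filter. Over the other 51, 37 passed, 19 higher and 18 lower (72.5%, against 72.2% of all probe sets above both filters, 43.4% higher and 28.8% lower), and their median was 0.16 against 0.27. The sign of the phosphatase median thus depended on the dim probe sets. This count was added after the data were seen. With intensities as deposited the split was 15 higher and 39 lower, and the median over all probe sets was -0.23, a shift of -0.32. No called phosphatase probe set changed sign under that scaling. By gene, with the dim probe sets kept, 11 were higher on all tested probe sets, 16 were lower on all, 8 did not pass on any, and 4 passed on only some of their probe sets. How all genes on the array divide in this way was not counted, so these counts have no background. For 5 genes, Ppp1r12a, Ppp2r2a, Ptpn1, Ptpra and Ptprs, probe sets passed in opposite directions, so no tissue direction is given for them.

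**Figure D3:**
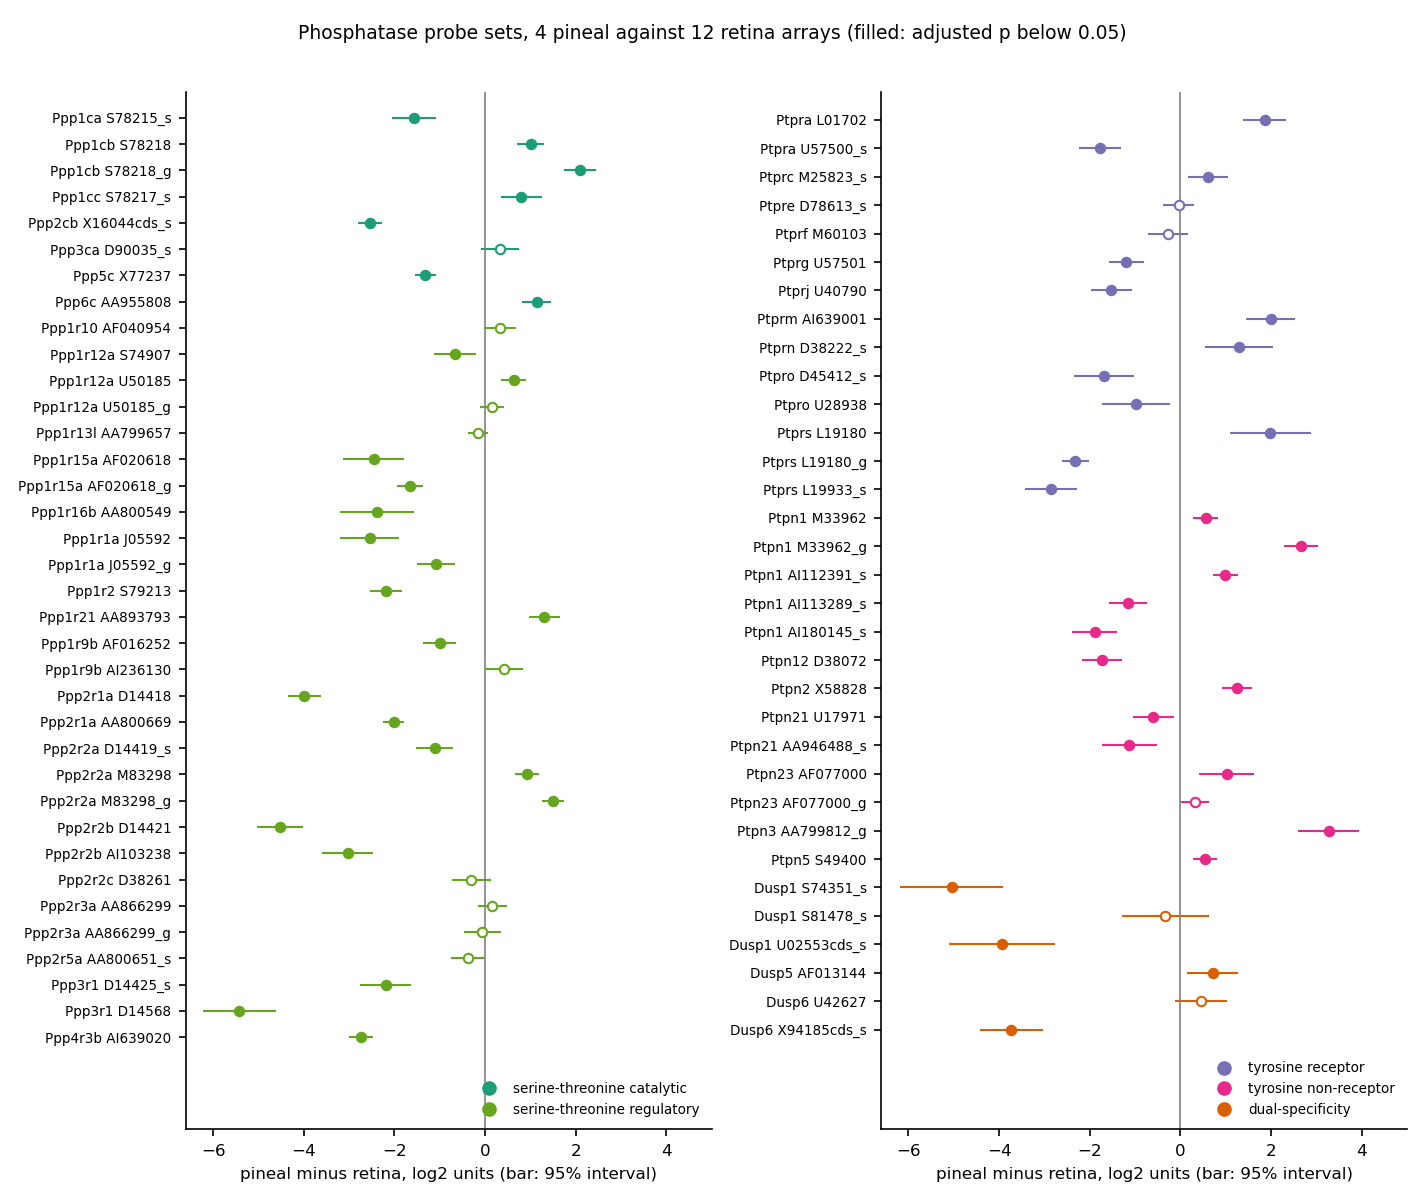
Pineal minus retina difference in log2 units (horizontal axis) with its 95% interval for each of the 69 tested phosphatase probe sets (vertical axis, by class and gene), filled where the adjusted p was below 0.05. The regulatory subunits Ppp3r1, Ppp2r2b and Ppp2r1a and the dual-specificity Dusp1 reach the lowest values, and Ptpn3 the highest, and each of these ends except Ppp2r1a rests on a probe set that is dim in 1 tissue.

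The catalytic subunits of protein phosphatase 1 went in different directions. The Ppp1ca isoform was lower in the pineal, by -1.57 ± 0.23 log2 units. The Ppp1cb isoform was higher on both probe sets, by 2.09 ± 0.16 and 1.01 ± 0.14, and Ppp1cc was higher by 0.80 ± 0.21. On S78218_g_at Ppp1cb read 12.63, 12.74, 12.70 and 12.22 on the pineal arrays of CT12, CT6, ZT12 and ZT6, and 10.00 to 10.96 on the retina arrays, with a median of 10.46. Every pineal array exceeded every retina array. Ppp2cb, a catalytic subunit of phosphatase 2A, was 5.81-fold lower in the pineal (-2.54 ± 0.13), Ppp5c was lower by -1.32 ± 0.11 and Ppp6c was higher by 1.14 ± 0.15. Ppp3ca did not pass (0.34 ± 0.20, adjusted p = 0.128).

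Of 28 probe sets of regulatory subunits 16 were lower and 4 higher in the pineal (36.4% lower and 39.4% higher over all), and the share called, 71.4%, was below that of all probe sets. Of the 21 above both filters 9 were lower and 4 higher (28.8% lower and 43.4% higher over all probe sets above both filters). Ppp3r1, the calcium-binding subunit of calcineurin, was 4.58-fold lower on D14425_s_at (-2.20 ± 0.26, adjusted p = 2.82e-06), which was above both filters. On D14568_at it read 7.03, 6.48, 7.50 and 6.61 in the pineal, and 10.25 to 13.06 in the retina with a median of 12.46. These pineal values are below the filter, so the difference of -5.42 ± 0.38 is not a measured ratio. Ppp2r2b was lower by -3.03 ± 0.27 on rc_AI103238_at, and by -4.52 ± 0.23 on D14421_at, which was below the pineal filter. Ppp2r1a, the scaffold of phosphatase 2A, was lower by -3.99 ± 0.17 and -2.02 ± 0.11, and on D14418_at the pineal read 10.41, 10.29, 9.69 and 9.99 against 13.55 to 14.45 in the retina.

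Other regulatory subunits lower in the pineal on probe sets above both filters were inhibitor 1, Ppp1r1a (-2.55 ± 0.31 and -1.07 ± 0.20), inhibitor 2, Ppp1r2 (-2.18 ± 0.17), and Ppp1r15a on AF020618_g_at (-1.66 ± 0.14). Ppp1r9b on AF016252_at was also lower and above both filters, by -1 log2 unit, but its other probe set did not pass, at 0.42. Below the pineal filter were Ppp4r3b of phosphatase 4 (-2.74 ± 0.13), Ppp1r15a on AF020618_at (-2.46 ± 0.31) and Ppp1r16b (-2.39 ± 0.38). For Ppp1r16b the tissues overlapped, with pineal values of 7.04 to 8.16 and a lowest retina value of 7.30 on CT12 array 1. Ppp1r21 was the only regulatory gene higher on all of its probe sets, by 1.31 ± 0.16 on its single one. Ppp2r5a, Ppp2r2c, Ppp2r3a, Ppp1r10 and Ppp1r13l did not pass on any probe set. Without CT12 array 1 Ppp2r5a and Ppp2r2c passed too, by -0.44 ± 0.14 and -0.40 ± 0.14 (adjusted p = 0.0108 and 0.0185).

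Among tyrosine phosphatases Ptpn3 had the highest difference in the pineal. Ptpn3, a membrane-associated enzyme with FERM and PDZ domains, differed by 3.27 ± 0.32 on rc_AA799812_g_at. It read 12.68, 10.74, 12.02 and 10.12 on the pineal arrays of CT12, CT6, ZT12 and ZT6, and 7.44 to 8.81 in the retina with a median of 8.21. All pineal arrays were above all retina arrays. The retina values were below the filter, so the difference is not a measured ratio. Ptprm, also below the retina filter, was higher by 1.99 ± 0.25, Ptprn by 1.29 ± 0.35, Ptpn2 by 1.25 ± 0.15, Ptprc, the leukocyte antigen CD45, by 0.61 ± 0.20, and Ptpn5 by 0.54 ± 0.12. The Ptprc values overlapped between the tissues, at 9.49 to 10.33 in the pineal and 8.61 to 9.84 in the retina. With intensities as deposited they lay closer, at 9.19 to 9.89 in the pineal and 8.63 to 9.93 in the retina. The mean of 11 immune genes, also as deposited, was 10.06 to 10.47 in the pineal and 8.89 to 10.30 in the retina. That list holds Ptprc itself, and its part in the Ptprc value was not tested.

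Lower in the pineal and above both filters were Ptpro on U28938_at (-0.98 ± 0.35) and Ptpn21 on U17971_at (-0.60 ± 0.21). For Ptpn21 only the pineal ZT12 and CT12 arrays, at 11.60 and 11.29, lay below the retina range of 11.87 to 13.52. Its pineal ZT6 and CT6 arrays, at 13.28 and 12.72, lay within it, on either side of the retina median of 12.88. Below the pineal filter were Ptpn12 (-1.73 ± 0.21), Ptprj (-1.52 ± 0.21), Ptprg (-1.19 ± 0.18), and the other probe sets of Ptpro (-1.69 ± 0.31) and Ptpn21 (-1.13 ± 0.28). The probe sets of Ptpn1 disagreed, with 3 higher and 2 lower in the pineal. M33962_g_at read 15.73, 15.87, 16.12 and 16.31 in the pineal against 12.45 to 14.32 in the retina (2.66 ± 0.18), whereas rc_AI180145_s_at, below the pineal filter, read 7.44, 8.53, 8.18 and 9.11 in the pineal against 9.56 to 11.09 in the retina (-1.89 ± 0.23). The probe set that rose at ZT12 in the retina, rc_AI113289_s_at, was lower in the pineal by -1.16 ± 0.19. Ptprs was lower by -2.32 ± 0.14 and -2.86 ± 0.27 on L19180_g_at and L19933_s_at and higher by 1.98 ± 0.42 on L19180_at. Ptpra was lower by -1.77 ± 0.21 on U57500_s_at and higher by 1.86 ± 0.23 on L01702_at. Of 18 genes with more than 1 probe set tested, 10 had the same sign on all of them in the tissue comparison, against 15 at ZT12 against ZT6.

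The dual-specificity genes split by probe set as well. Dusp1 was lower in the pineal on S74351_s_at (-5.05 ± 0.53) and U02553cds_s_at (-3.95 ± 0.54), where the pineal arrays read 5.90 to 6.33 and 7.67 to 7.99 and were below the filter. On S81478_s_at the difference was -0.33 ± 0.45 (adjusted p = 0.507), with pineal values of 12.10, 8.97, 11.83 and 8.75 for CT12, CT6, ZT12 and ZT6 on either side of the retina median of 10.88. Dusp6 was lower on X94185cds_s_at (-3.73 ± 0.33), also below the pineal filter, and did not pass on U42627_at (0.46 ± 0.27, adjusted p = 0.138). Dusp5 was higher by 0.71 ± 0.26 (adjusted p = 0.0225).

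Of the partner lists, 4 MAP kinase pathway genes were higher and 7 lower in the pineal of 15 tested, with Map2k6 higher by 2.26 ± 0.13 and Map3k12 lower by -5.23 ± 0.41. Of 7 calcineurin and calmodulin partners, 0 were higher and 4 were lower, Camk2g (-1.73 ± 0.18), Camk2b, Cabin1 and Calm2. Of 14 other phosphatases and inhibitors, 7 were higher and 5 lower, with Pdp2 of the pyruvate dehydrogenase complex higher by 3.81 ± 0.19, Ptp4a1 higher by 3.41 ± 0.12 and the phosphatase 2A inhibitor Ensa lower by -2.75 ± 0.21. Of 13 genes of protein kinases A and C, 6 were higher and 6 lower, with the regulatory subunit Prkar2b higher by 2.99 ± 0.26 and Prkca lower by -4.05 ± 0.38. Prkar2b averaged 8.1 in the retina and Prkca 6.4 in the pineal, so both differences rest on dim values and are not measured ratios. Of 30 tyrosine kinase genes and partners, 11 were higher and 8 lower. Read against the 75.8% of all probe sets called, 39.4% higher and 36.4% lower, these counts are mostly near the background. The lists were not counted over probe sets above both filters alone. The median of all genes was 0.25 log2 units, against -0.20, -0.57, 0.40, -0.38 and 0.30 for the 5 lists in that order.

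In the pineal itself, Dusp1, Ptpn3 and Ptpn21 differed most between the hours. With 1 array for each label there is no replicate check and no test, and a difference was counted where it reached 1 log2 unit in the same direction under ZT and under CT. By that measure 3 of 58 phosphatase probe sets above the filter differed, 2 higher and 1 lower at hour 12, against 2.56% of all probe sets (1.53% higher and 1.03% lower). Over both regimes 39 of the 58 had the same sign (67.2%, against 63.2% of all probe sets).

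Dusp1 on S81478_s_at had a log2 intensity of 11.65 at ZT12 and 8.46 at ZT6, and of 11.95 at CT12 and 8.56 at CT6. Both hour 12 arrays were far above both hour 6 arrays, 9.14-fold under ZT and 10.5-fold under CT. The other Dusp1 probe sets were below the filter in the pineal, at 6.13 and 6.25 at ZT12 and CT12 against 5.88 and 5.82 at ZT6 and CT6 on S74351_s_at, and at 7.58 and 7.64 against 7.38 and 7.45 on U02553cds_s_at. Ptpn3 on rc_AA799812_g_at read 11.90 at ZT12 and 9.81 at ZT6, and 12.75 at CT12 and 10.43 at CT6, which is 4.25-fold and 5.0-fold higher at hour 12. Its other probe set, rc_AA799812_at, was dim and ran the other way, at 6.02 and 6.22 at ZT12 and CT12 against 7.96 and 7.40 at ZT6 and CT6.

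Ptpn21 on U17971_at was lower at hour 12, at 11.38 at ZT12 and 13.45 at ZT6 and at 10.98 at CT12 and 12.84 at CT6, or 4.22-fold and 3.63-fold lower. Its other probe set was below the filter and higher at hour 12, with 8.58 at ZT12 and 7.55 at ZT6. The members next in size were Ppp1ca, at -0.87 under ZT and -0.93 under CT, Ppp1r10, a nuclear subunit of phosphatase 1, at 0.76 and 1.08, and Ptprs on L19933_s_at, at 1.70 and 0.68. Aanat, the enzyme that drives the night rise of melatonin, had 13.63 and 14.29 on the ZT12 and CT12 pineal arrays against 9.22 and 8.81 at ZT6 and CT6, in the direction of their titles. The description of the ZT12 pineal array gives hour 6, and its title was followed. On rc_AI113289_s_at, the only Ptpn1 probe set that passed at ZT12 against ZT6 in the retina, the single pineal arrays differed little. They read 10.14 at ZT12, 9.97 at ZT6, 10.24 at CT12 and 10.24 at CT6.

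**Figure D4:**
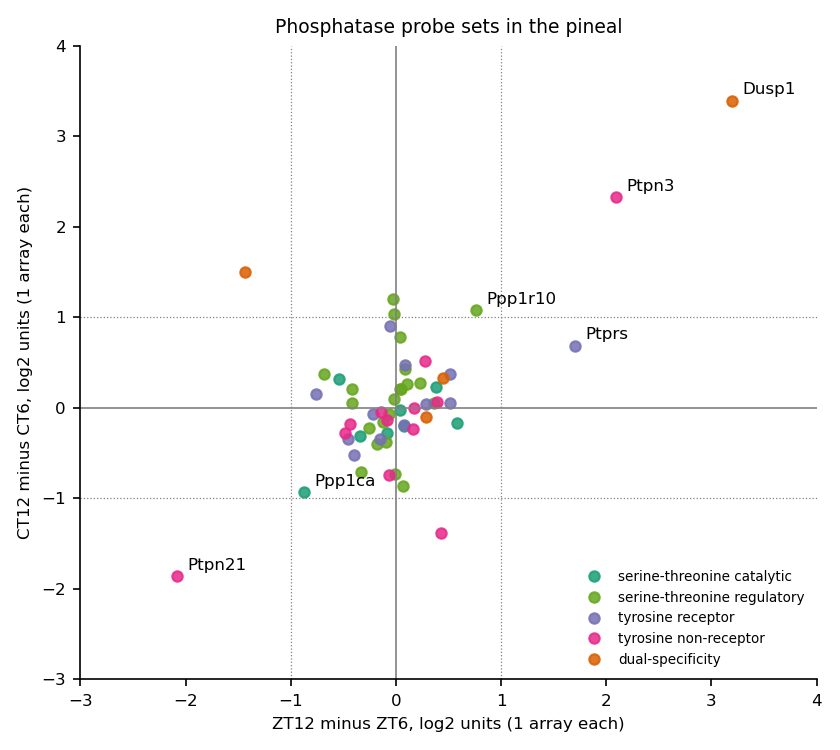
Difference between hour 12 and hour 6 in the pineal in log2 units, under ZT (horizontal axis) and CT (vertical axis), for 58 phosphatase probe sets coloured by class, each from single arrays. Dusp1 at 3.19 and 3.39, Ptpn3 at 2.09 and 2.32 and Ptpn21 at -2.08 and -1.86 lie past the dotted lines at 1 log2 unit on both axes.

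The 32 probe sets below the filter in the retina left 19 genes untested there. The filter kept all 9 catalytic and 28 of 32 regulatory probe sets, but 14 of 28 receptor and 12 of 24 non-receptor tyrosine phosphatase probe sets and 6 of 8 dual-specificity ones. The untested genes were Dusp4, Dusp7, Ppp1r36, Ppp1r3b, Ppp1r9a, Ppp3r2, Ptpn11, Ptpn18, Ptpn3, Ptpn6, Ptpn7, Ptprd, Ptprh, Ptprm, Ptprn2, Ptprq, Ptprr, Ptprv and Ptprz1. Ptpn11, the widely expressed phosphatase SHP2, was below it on all 5 probe sets, with single-array values between 5.42 and 9.30. Ptprz1, a receptor phosphatase of glia, was below it on both. A value below the filter is a dim signal on this array and not a measured absence. Ppp1r1b, Ppp3cc and Ppp2ca were not analysed here, since no probe set carried one of these symbols alone.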

How the data were processed

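The authors deposited linear intensities of 8799 probe sets on 16 arrays, per the file headers. How probe sets were summarized, background-corrected and scaled is not given in the sources used here. The 59 control probe sets were left out. Probe sets were named through GEO's platform annotation, with symbols matched by gene ID to RefSeq for all 101 members, and 2 probe sets annotated to Ppp2ca together with another gene were left out by the rule.

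Here the retina arrays, and all 16 for the tissue comparison, were quantile normalized. An offset of 16 was added before taking log2. Kept probe sets were those whose mean reached the 40th percentile, which gave 5244, with the lowest mean at 8.88 in the retina, 8.82 over 16 arrays and 8.39 in the pineal. Pineal arrays were compared as deposited. Fold changes on this scale understate changes of dim probe sets.

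Tests were two-sided and used limma 3.58.1 (R 4.3.3), with the 4 retina groups in 1 fit with 8 residual degrees of freedom and the tissue fit with condition as a factor. The Benjamini-Hochberg adjustment ran over all 5244 probe sets and the threshold was 0.05. The procedure was run on simulated data whose spread came from the retina arrays without CT12 array 1. That run does not show how the fits behave with that array included. In each comparison up to 20 members past the threshold were named by size, or the 5 with the smallest p where fewer passed, with 18 genes always named where measured. Other members were named after their values were seen, to show a pattern in the figures, where probe sets of a gene disagree, or with the lens genes. The members and lists were chosen with earlier results of these data known. Precision is limited by how many arrays there are. Alternatives were offsets of 1 and 64, a replicate block, values as deposited, no filter, the 60th percentile in its place, array weights, a lens covariate, the arrays labelled eye only, the compared groups alone, and each array left out in turn.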

Additional observations from a re-analysis of the deposited data

How the results depend on the processing

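Counts of phosphatase probe sets called in the retina depended on the processing, and their cause was not tested except where a setting's construction shows it. At ZT12 against ZT6 (1 called) the count was 0 as deposited, with no filter, with the lens covariate and with the arrays labelled eye only, 4 with the 2 groups fitted alone (1.66% of all probe sets), and 0 to 5 with an array left out, 5 without CT12 array 1. At CT12 against ZT12 (1) it was 0 under the same 4 settings and with the groups alone, 2 with a filter at the 60th percentile and 0 to 23 with an array left out, 0 without any ZT12 array or CT12 array 1 or 2. For hour 12 against hour 6 (2) it was 0 with no filter, the lens covariate and the arrays labelled eye, and 0 to 8 with an array left out, 5 without CT12 array 1, 1 without CT6, ZT12 or CT12 array 2, and 0 without ZT12 array 3 or any ZT6 array. At CT12 against CT6 (0) it was 1 with an offset of 1, 1 as deposited, 2 with the 60th percentile filter, and 0 to 20 with an array left out. The counts of 20, 23 and 8 came without CT12 array 3, which leaves the 2 CT12 arrays with the highest lens means, and 24.9%, 20.4% and 3.39% of all probe sets were called with them. Estimation of array weights stopped before it converged and gave CT12 array 2 a weight of 48.4, with 0.0439 and 0.233 for arrays 1 and 3, so CT12 rested nearly on 1 array. The calls were then 11 at ZT12 against ZT6, 35 at CT12 against CT6, 40 at CT12 against ZT12, 31 by hour, 24 by regime and 18 for the difference in time effects, with 5.32%, 48.1%, 49%, 27.3%, 19.7% and 26.1% of all probe sets, and they are not read as results. CT6 against ZT6 gave 0 throughout, and CT against ZT and the difference in time effects gave 0 in all settings but the weights. Pineal against retina gave 37 to 70 under other settings, 37 over probe sets above the filter in each tissue (a setting chosen after seeing the data), and 51 to 60 with an array left out, against 55. The pineal hours gave 5 with no filter, against 3. Over 875 alternative values of the named members 0 reversed, 41 lost and 44 gained the call.

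As a replicate block, the title number gave 0 calls at ZT12 against ZT6, 0 at CT12 against ZT12 and 1 by hour. Deviations of same-numbered arrays correlated between -0.413 and 0.414 (median 0.0125 over 18 pairs), with 5 pairs over 0.1. Of 12 arrays, 5 correlated best with their own number, and the count expected by chance was not worked out. These correlations cannot decide whether the numbers pair the arrays, since lens content also differed among arrays of a group and enters the deviations. The number also goes with the source field, and whether it marks a batch was not tested.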
